A study of Mus musculus with 8 samples.

Results

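Oxidative phosphorylation was followed through the genes of its 5 enzyme complexes in mouse liver. The members were the rows annotated as protein coding whose symbols start with Nduf, Uqcr, Atp5, mt- or Cox4 to Cox8, or are Sdha, Sdhb, Sdhc or Sdhd. They numbered 110 of the 55416 genes in the deposited table. Of these, 13 are subunits encoded in mitochondrial DNA, 78 are nuclear-encoded subunits, 8 are complex I assembly factors (Ndufaf1 to Ndufaf8) and 11 are tissue isoforms, paralogs or duplicate entries. The 78 nuclear subunits divide into 37 of complex I, 4 of complex II, 8 of complex III, 12 of complex IV and 17 of complex V. Cyc1, cytochrome c1 of complex III, does not match the symbols and is given below with the electron carriers. A further 41 matching symbols are not protein coding and were not members.

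The study sequenced RNA of whole livers from 4 groups of mice, with 2 libraries per group. Injured KO mice were GlulΔlyz2 animals given lipopolysaccharide (LPS, 1 mg/kg) and D-galactosamine (D-GalN, 200 mg/kg) into the peritoneum, and injured floxed mice were Glul flox/flox animals given the same. H2O KO and H2O floxed mice had the same genotypes and received H2O. Both genotypes carry the floxed allele of Glul, the gene of glutamine synthetase, and KO mice lose it where Cre is expressed from the Lyz2 locus, chiefly in macrophages, monocytes and neutrophils, so that hepatocytes keep the gene. The question of the study was whether this myeloid deficiency worsens the injury. Nothing in the labels states that the 2 libraries of a group are 2 animals, and p-values measure only the spread between these libraries, which may be technical. The sources used here do not give age, sex or the time of collection.

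The complexes of the inner mitochondrial membrane pass electrons from NADH (complex I) and succinate (complex II) through ubiquinone, complex III and cytochrome c to oxygen at complex IV. Complexes I, III and IV pump protons, and complex V, the ATP synthase, uses the proton gradient to make ATP. Complex II is wholly nuclear-encoded, while the other complexes join subunits from both genomes. Mitochondrial transcripts are made as long precursors by a dedicated polymerase, and nuclear subunit genes are transcribed one by one, with the factors NRF1, GABP and ERR alpha among their known regulators. Hepatocytes hold many mitochondria and rely on these complexes for urea, glucose and bile acid synthesis.

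Levels are in FPKM, the fragments assigned to a gene divided by its length and by the total of the library, and differences are in log2 of FPKM plus 1. Libraries held between 18381670 and 24799143 assigned fragments. The share of fragments on the 13 mitochondrial genes was 7.67% and 10.4% for injured KO livers, 5.96% and 5.90% for injured floxed livers, 19.98% and 11.98% for H2O KO livers, and 13.5% and 10.7% for H2O floxed livers. Over all 13708 tested genes the median difference was -0.28 in both injury comparisons, so directions of small changes depend on the scaling. Glul itself had 74.6 and 90.1 FPKM in injured KO livers, 358 and 237 FPKM in injured floxed livers, 89.8 and 134 FPKM in H2O KO livers, and 107 and 106 FPKM in H2O floxed livers. Since hepatocytes around central veins express most liver Glul, these bulk values do not check a deletion limited to myeloid cells. Lyz2 had 39.9 and 32.7 FPKM in injured KO livers, 15.9 and 24.5 FPKM in injured floxed livers, 5.27 and 9.92 FPKM in H2O KO livers, and 33.7 and 72.4 FPKM in H2O floxed livers. Because KO mice express Cre from the Lyz2 locus, these values may not track myeloid cells between genotypes. In bulk tissue, fewer cells of a type and less RNA per cell cannot be told apart.

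Most tested markers of blood-derived and resident non-parenchymal cells were higher in injured KO livers than in the injured floxed ones. Of all tested genes 25.3% were called higher and 27.2% lower in this comparison. With injury 22.3% of all tested genes rose and 40.7% fell in KO livers, and 18.5% rose and 38.8% fell in floxed livers. The summed level of 6 neutrophil markers was 947 and 984 FPKM in injured KO livers, 96.7 and 162 FPKM in injured floxed livers, 6.21 and 4.69 FPKM in H2O KO livers, and 8.94 and 5.55 FPKM in H2O floxed livers, and all 6 were higher in the injured KO group than in the injured floxed group. Ly6g of this list reached 1 FPKM only in the injured KO libraries, which fixed the direction of its call, and was at 0 in the 4 H2O libraries, and Chil3 of the macrophage list was at 0 in 1 of them. The 6 monocyte and macrophage markers, of which 5 of 5 tested were higher, summed to 73.1 and 75.1 FPKM in injured KO livers, 18.1 and 22.9 FPKM in injured floxed livers, and between 7.27 and 18.1 FPKM in H2O livers. Kupffer cell markers (4 of 5 higher) summed to 275 and 131 FPKM in injured KO livers, 28.9 and 47.0 FPKM in injured floxed livers, and 66.9 to 153 FPKM in H2O livers. Marco alone made up 180.5 and 79.3 FPKM of the injured KO sums. With injury 2 of these 5 rose and 0 fell in KO livers, and 0 rose and 4 fell in floxed livers. Endothelial markers (3 of 5 higher) summed to 81.7 and 49.3 FPKM in injured KO livers, 10.4 and 13.4 FPKM in injured floxed livers, and 23.2 to 30.3 FPKM in H2O livers. Here Cdh5 alone made up 57.9 and 36.9 FPKM of the injured KO sums. With injury 2 of the 5 endothelial markers rose and 2 fell in KO livers, and 0 rose and 3 fell in floxed livers. Red blood cell markers (5 of 5 higher) summed to 26160 and 3741 FPKM in injured KO livers, 84.5 and 90.0 FPKM in injured floxed livers, and 171 to 323 FPKM in H2O livers, which sets injured KO replicate 1 apart. The same direction held for 2 of 5 stellate cell markers (109 and 56.2 FPKM in injured KO livers, against 37.6 and 22.5 FPKM in injured floxed livers, and 16.6 to 29.9 FPKM in H2O livers). Of the T and NK cell markers 2 of 2 tested were higher (6.19 and 4.24 FPKM, against 1.08 and 0.997 FPKM, and 3.503 to 4.666 FPKM in H2O livers), as were 2 of 3 tested cholangiocyte markers (24.1 and 19.0 FPKM, against 9.46 and 5.83 FPKM, and 3.42 to 4.77 FPKM in H2O livers). The 8 hepatocyte markers summed to 40270 and 40510 FPKM in injured KO livers, 34000 and 34420 FPKM in injured floxed livers, 27790 and 39360 FPKM in H2O KO livers, and 37130 and 37780 FPKM in H2O floxed livers, with 3 higher and 2 lower in the injured KO group than in the injured floxed group. For lists this short, the stellate cell and hepatocyte counts are not far from the shares of all tested genes. No hepatocyte marker was at 0 in any library. The part of cell composition in the results below was not tested.

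The nuclear subunits spanned a wide range of levels at rest. In H2O floxed livers their group means ran from 2.65 FPKM for Ndufb2, an accessory subunit of complex I, to 307 FPKM for Cox6a1, an accessory subunit of complex IV, with a median of 46.7 FPKM. These levels are divided by the summed length of all annotated exons, 5628 bases for Ndufb2 and 702 for Cox6a1, so the order of genes depends on it. The median over nuclear subunits was 59.6 FPKM in injured KO livers, 25.8 FPKM in injured floxed livers and 47.8 FPKM in H2O KO livers. Summed over the 78 genes, nuclear subunits reached 7768 and 5782 FPKM in injured KO livers, 2475 and 2845 FPKM in injured floxed livers, 4338 and 5234 FPKM in H2O KO livers, and 4600 and 4774 FPKM in H2O floxed livers. Both injured KO libraries thus lay above every H2O library, and both injured floxed libraries below. The sums of complexes I, III, IV and V were each highest in injured KO livers and lowest in injured floxed livers. Complex II was the least spread, at 299 and 257 FPKM in injured KO livers, 200 and 208 FPKM in injured floxed livers, 194 and 287 FPKM in H2O KO livers, and 234 and 257 FPKM in H2O floxed livers, where H2O KO overlaps every other group.

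**Figure D1:**
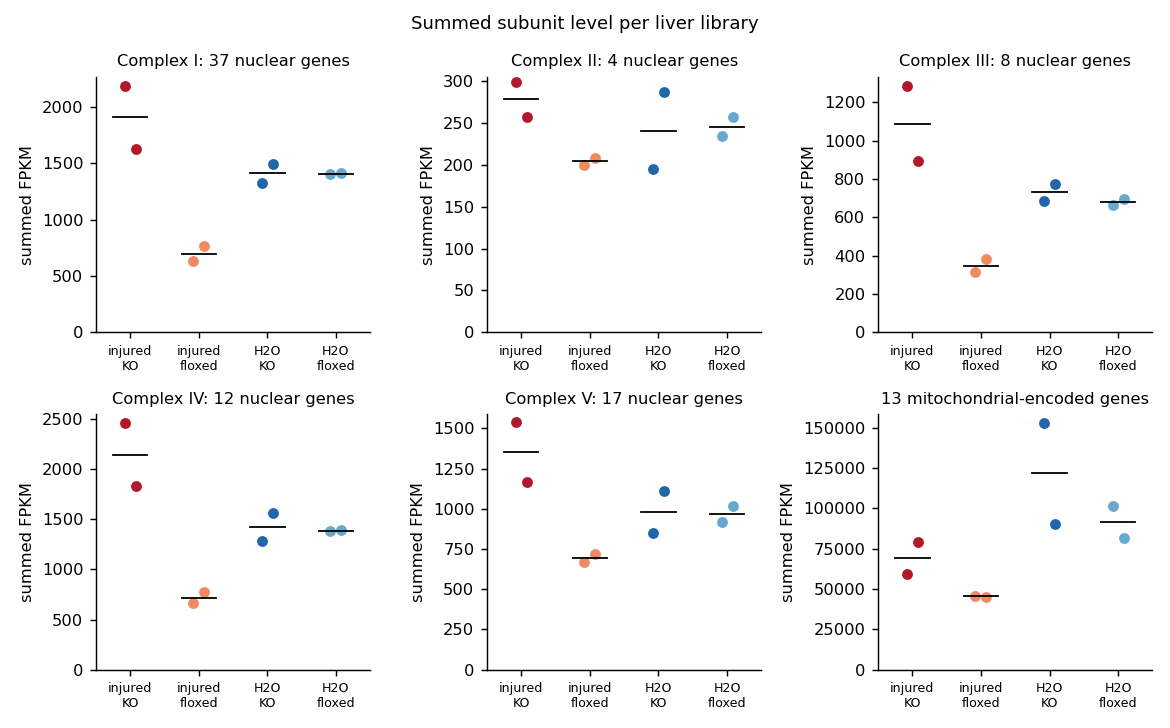
Summed level in FPKM (vertical axes, each from 0) of the nuclear subunits of each complex and of the 13 mitochondrial-encoded genes, for each group on the horizontal axes. Points are libraries and bars are group means of 2; nuclear sums of complexes I, III, IV and V are highest in injured KO and lowest in injured floxed livers, whereas the mitochondrial sum is 152880 and 90667 FPKM in H2O KO livers, on both sides of the higher H2O floxed library at 101520 FPKM.

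Without injury the genotypes did not differ detectably. None of the 78 nuclear subunits, 13 mitochondrial-encoded genes or 8 assembly factors passed the test between H2O KO and H2O floxed livers, by limma or by voom on recovered fragments. At an unadjusted p under 0.05 there were 0 nuclear and 0 mitochondrial-encoded genes and 1 assembly factor. Over all genes 0% were called higher and 0.0073% lower, which is 1 gene, Oas2. The nuclear differences ran from -0.21 to 0.47 with a median of -0.02. Cox4i1 (ENSMUSG00000031818), the main isoform of subunit 4 of complex IV, had 150 and 192 FPKM in H2O KO livers, against 170 and 184 FPKM in H2O floxed livers, a difference of -0.06 ± 0.21 (SE). Both H2O KO libraries lay above both H2O floxed libraries for 9 nuclear subunits (5.91% of all tested genes) and below them for 4 (28.7%). The mitochondrial-encoded genes had differences between 0.04 and 0.91, all of 1 sign, and H2O KO replicate 1 was the highest library for all but mt-Nd4l and mt-Co3. These p-values do not show that the groups are alike.

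In floxed livers most nuclear subunits of complexes I, III, IV and V fell with injury, and 1 of the 4 of complex II did. Of the 78, 60 fell and 0 rose (voom on recovered fragments gave 61 and 1), against 38.8% of all tested genes called lower and 18.5% higher, with a median difference of -0.95. The falls were 76.9% of the nuclear subunits. Both injured libraries lay below both H2O libraries for 72 (53.7% of all tested genes) and above them for 4 (29.3%). Complex I had 31 of 37 lower, complex II 1 of 4, complex III 6 of 8, complex IV 9 of 12 and complex V 13 of 17. The only complex II gene among them was Sdhb, its iron-sulfur subunit, at 29.9 and 35.9 FPKM in injured floxed livers, against 81.1 and 67.6 FPKM in H2O floxed livers (-1.15 ± 0.19, adjusted p = 0.00179). Without injured floxed replicate 1 the count of falls was 37, and after median centring 45 fell and 2 rose.

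Among nuclear members, the 4 largest falls in floxed livers were in subunits of complex I. Ndufa6 (ENSMUSG00000022450), an accessory subunit, had 18.7 and 20.1 FPKM in injured floxed livers, against 73.7 and 72.6 FPKM in H2O floxed livers. Its difference of -1.86 ± 0.19 (adjusted p = 0.000174) stands beside 89.4 and 66.1 FPKM in injured KO livers and 67.9 and 70.7 FPKM in H2O KO livers, which overlap. Ndufa5, an accessory subunit of the matrix arm, fell by 1.87 on the log2 scale, Ndufs7, which holds an iron-sulfur cluster, by 1.83, and Ndufv3 of the NADH-oxidising module by 1.82. Ndufaf3, an assembly factor, fell by 1.81 and Uqcrq, a small subunit of complex III, by 1.66. Cox6a1 had 122 and 153 FPKM in injured floxed livers, against 301 and 313 FPKM in H2O floxed livers (-1.16 ± 0.25, adjusted p = 0.0056). The 18 nuclear subunits that did not pass include large catalytic ones. Atp5a1, the alpha subunit of the ATP synthase, had 161 and 169 FPKM in injured floxed livers, against 132 and 165 FPKM in H2O floxed livers. Sdha, the flavoprotein of complex II, had 79.6 and 77.4 FPKM in injured floxed livers, against 45.2 and 62.4 FPKM in H2O floxed livers (0.55 ± 0.30, adjusted p = 0.15). It passed as higher after median centring (adjusted p = 0.0498), after quantile normalisation (0.0161) and when the other groups were left out of the model (0.0443).

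In KO livers injury raised some nuclear subunits and lowered few. Of the 78, 26 rose and 5 fell, with a median of 0.32, against 22.3% of all tested genes called higher and 40.7% lower. Rises were thus 33.3% and falls 6.41% of the nuclear subunits. Both injured libraries lay above both H2O libraries for 36 (29.1% of all tested genes) and below them for 7 (50.8%). The split was 39 and 2 after median centring and 19 and 7 after quantile normalisation. Rises numbered 10 of 37 in complex I, 0 of 4 in complex II, 3 of 8 in complex III, 7 of 12 in complex IV and 6 of 17 in complex V. Without injured KO replicate 1 there were 9 rises and without H2O KO replicate 1 there were 13, while falls numbered 2 without injured KO replicate 2 and 3 without H2O KO replicate 2.

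Cox7a2l (ENSMUSG00000024248), which joins complexes III and IV into supercomplexes, had the largest rise in KO livers. It had 64.6 and 54.8 FPKM in injured KO livers, against 16.9 and 28.8 FPKM in H2O KO livers (1.39 ± 0.25, adjusted p = 0.00197). In injured floxed livers it stood at 33.9 and 40.1 FPKM, against 23.0 and 23.7 FPKM in H2O floxed livers, a difference of 0.64 ± 0.25 (adjusted p = 0.0597; between 0.0114 and 0.0468 under 8 of the other settings). Atp5k, subunit e of the ATP synthase membrane part, rose by 1.31, Ndufa2 of the complex I matrix arm by 1.22, Uqcrh, the hinge protein of complex III, by 1.21, and Atp5d, the delta subunit of the ATP synthase, by 1.16. The rise of Ndufa2 did not pass without injured KO replicate 1 (adjusted p = 0.0519). Cox4i1 had 360 and 281 FPKM in injured KO livers, against 150 and 192 FPKM in H2O KO livers (0.90 ± 0.21, adjusted p = 0.00725), and in floxed livers the same gene fell to 93.6 and 105 FPKM with injury, against 170 and 184 FPKM with H2O (-0.83 ± 0.21, adjusted p = 0.012). That fall did not pass without injured floxed replicate 1 (0.0813), without H2O floxed replicate 2 (0.0699) or after median centring (0.0568).

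The 5 nuclear subunits that fell in KO livers were Ndufs1, Ndufv2 and Ndufab1 of the complex I matrix arm, Ndufb2 of its membrane arm, and Uqcrb of complex III, of which Ndufv2, Ndufab1 and Uqcrb were named after their values were seen. Their differences were -0.70, -0.63, -0.43, -0.69 and -0.64. Ndufs1 (ENSMUSG00000025968), the largest subunit of complex I and carrier of several iron-sulfur clusters, had 5.16 and 5.45 FPKM in injured KO livers, 9.34 and 9.05 FPKM in injured floxed livers, 8.15 and 10.46 FPKM in H2O KO livers, and 8.52 and 9.08 FPKM in H2O floxed livers. Injured KO livers were below the other 6 libraries. Its change was -0.70 ± 0.15 in KO livers (adjusted p = 0.00484) and 0.06 ± 0.15 in floxed livers (0.766, and -0.04 with the scaling without mitochondrial and haemoglobin genes).

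**Figure D2:**
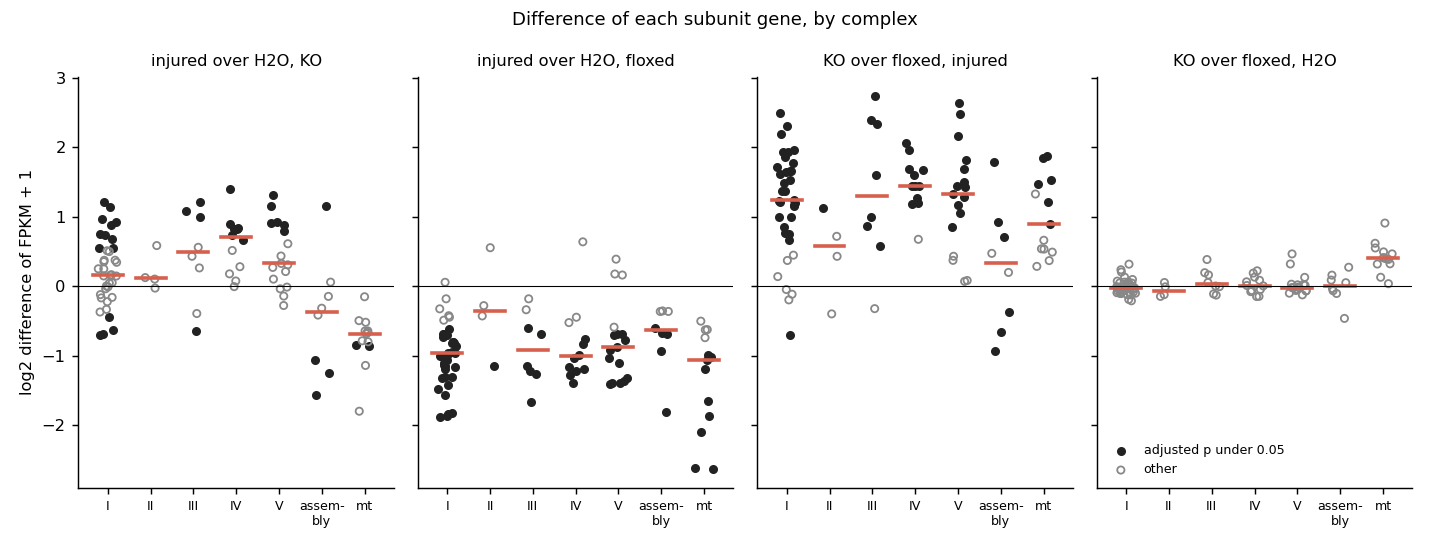
Log2 difference of FPKM plus 1 (vertical axis) of each nuclear subunit by complex, of the 8 assembly factors and of the 13 mitochondrial-encoded genes, in 4 comparisons. Filled points passed an adjusted p of 0.05, open points did not, and bars are medians; nuclear medians of the 78 genes are 0.32, -0.95, 1.30 and -0.02 from left to right.

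Between the injured groups, nuclear subunits were higher in KO than in floxed livers. Of the 78, 62 were higher and 1, Ndufs1, was lower, with a median difference of 1.30 beside -0.04 over all tested genes, of which 25.3% were called higher and 27.2% lower. Both injured KO libraries lay above both injured floxed libraries for 69 of the 78, as they did for 36.8% of all tested genes, and below them for 4, against 41.8%. The calls were 79.5% of the nuclear subunits for higher and 1.28% for lower. Complex I had 30 of 37 higher, complex II 1 of 4 (Sdhb), complex III 7 of 8, complex IV 11 of 12 and complex V 13 of 17. Leaving out any 1 library gave 54 to 64 higher. Without injured KO replicate 1, the library with the highest red blood cell signal, 57 were higher.

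Uqcr11 (ENSMUSG00000020163), the smallest subunit of complex III, had 310 and 185 FPKM in injured KO livers, 28.6 and 43.1 FPKM in injured floxed livers, 110 and 115 FPKM in H2O KO livers, and 80.8 and 91.3 FPKM in H2O floxed livers. Injured KO livers were the highest group and injured floxed livers the lowest, with no overlap, and the injured KO libraries differed between themselves more than those of any other group. The difference between injured KO and injured floxed livers was 2.74 ± 0.29 (adjusted p = 0.000402). Atp5e, the epsilon subunit of the ATP synthase, had 87.3 and 52.8 FPKM in injured KO livers, against 8.35 and 12.3 FPKM in injured floxed livers (2.63 ± 0.28, adjusted p = 0.000412). Ndufa2 (2.49 ± 0.30), Atp5k (2.48 ± 0.21), Uqcrq (2.38 ± 0.27) and Uqcr10 of complex III (2.34 ± 0.26) followed. In complex IV, Cox8a differed by 1.96 ± 0.24, Cox6a1 by 1.69 ± 0.25, Cox4i1 by 1.67 ± 0.21, Cox7a2 by 1.43 ± 0.23 and Ndufa4 by 1.20 ± 0.27, all with an adjusted p of at most 0.00768. Ndufa4 did not pass without injured floxed replicate 1 (0.0514).

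Counts and medians are given by role, with no test of the contrast between roles. In complex I, 4 of 7 core subunits of the electron path were higher and 1 lower (median 0.76), while 26 of 30 accessory subunits were higher and 0 lower (median 1.43). In complex III, of the 2 core proteins Uqcrc1 was higher (0.99) and Uqcrc2 did not pass (-0.32), whereas the 5 accessory subunits were all higher with a median of 2.34. Uqcrfs1, the Rieske iron-sulfur protein of the same complex, was higher by 0.87. In complex V, 2 of the 5 subunits of the F1 head were higher (Atp5d and Atp5e), and its alpha, beta and gamma subunits did not pass. Atp5a1 had 185 and 163 FPKM in injured KO livers, against 161 and 169 FPKM in injured floxed livers (0.07 ± 0.28, adjusted p = 0.853, and -0.38 after quantile normalisation). Atp5b, the beta subunit that carries the catalytic sites, had 227 and 202 FPKM in injured KO livers, against 158 and 159 FPKM in injured floxed livers (0.43 ± 0.28, adjusted p = 0.225, and -0.02 after quantile normalisation). All 3 genes of the c ring, Atp5g1, Atp5g2 and Atp5g3, which encode 1 mature protein, were higher, by 1.43 or more. Sdha had 63.2 and 55.8 FPKM in injured KO livers, against 79.6 and 77.4 FPKM in injured floxed livers (-0.40 ± 0.30, adjusted p = 0.3), and was lower after quantile normalisation (-0.89, adjusted p = 0.0186). Cox7a2l missed the threshold (0.68 ± 0.25, adjusted p = 0.0534), though it passed under 7 of the other settings with p between 0.0152 and 0.0435.

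**Figure D3:**
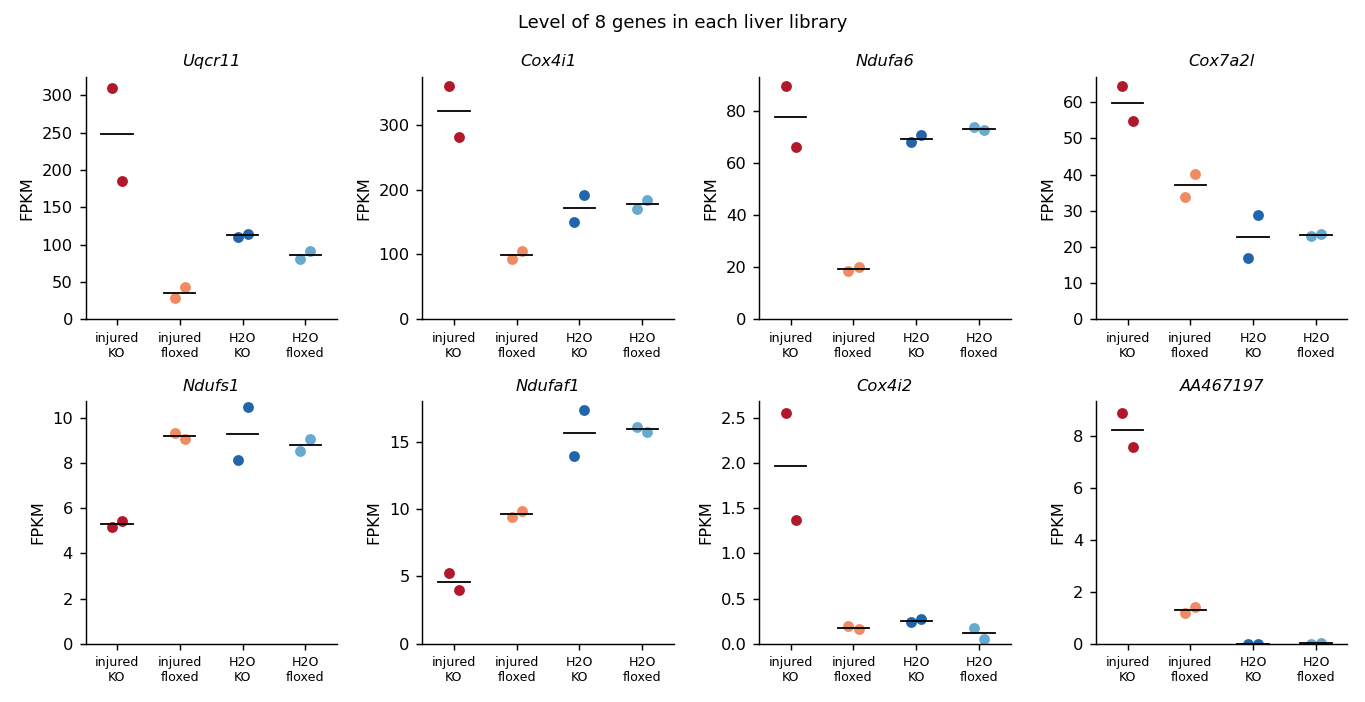
Level in FPKM (vertical axes, each from 0) of 8 genes in each library, with bars at the mean of 2. Uqcr11, Cox4i1 and Ndufa6 are lowest in injured floxed livers, Ndufs1 and Ndufaf1 are lowest in injured KO livers, and Cox4i2 and AA467197 are highest in injured KO livers.

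Subunit genes with a longer summed exon length had smaller differences between the injured groups. This length joins the exons of all annotated transcripts of a gene, so it is not the length of the transcript expressed in liver. Among the 78 nuclear subunits, the log2 of the summed exon length and the difference had a Pearson r of -0.575 and a Spearman rho of -0.533, across genes that share the same libraries. The 17 genes of up to 1000 bases had a median of 1.69, the 31 of 1000 to 2000 bases 1.60, the 11 of 2000 to 3000 bases 0.76, the 15 of 3000 to 5000 bases 0.99 and the 4 longer ones -0.03. All tested genes had medians of 0.23, 0.34, 0.12, -0.10 and -0.30 in these classes, so that the classes over 2000 bases were again lower than the shorter ones, and the subunits lay above the median of all genes in each class. Summed exon length therefore moved with the result, and its part in it was not tested. In H2O livers the same r was -0.417, with subunit medians between -0.06 and 0.06.

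The genotype by injury interaction, the change in KO livers minus the change in floxed livers, was positive for 57 nuclear subunits and negative for 1, Ndufs1 (20.9% and 15.1% of all tested genes), with a median of 1.33. It shares its libraries with the comparisons above. Positive counts were 27 of 37 in complex I, 1 of 4 in complex II, 5 of 8 in complex III, 11 of 12 in complex IV and 13 of 17 in complex V. The largest were Uqcr11 (2.35 ± 0.41), Atp5e (2.31 ± 0.40), Ndufa13, an accessory subunit of complex I (2.27 ± 0.37), Uqcrq (2.22 ± 0.38), Atp5d (2.18 ± 0.33) and Ndufa2 (2.17 ± 0.43), with adjusted p between 0.00322 and 0.0079. For Ndufs1 it was -0.76 ± 0.22 (adjusted p = 0.0291), a call that ended with no filter on low values and without any of 6 libraries (adjusted p between 0.0596 and 0.0949).

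Complex I assembly factors, which act on the growing complex and are not part of it, were called in both directions. Between the injured groups 3 of 8 were higher in KO livers (Ndufaf2, Ndufaf3 and Ndufaf8) and 3 were lower (Ndufaf1, Ndufaf4 and Ndufaf7), each 37.5% of 8 genes beside 25.3% and 27.2% of all tested genes, or 4 and 2 after median centring, and 1 was lower without injured floxed replicate 1. Ndufaf1 (ENSMUSG00000027305), needed for the membrane arm, had 5.27 and 3.97 FPKM in injured KO livers, 9.39 and 9.89 FPKM in injured floxed livers, 13.9 and 17.3 FPKM in H2O KO livers, and 16.1 and 15.8 FPKM in H2O floxed livers. It was lower in both injured groups than in H2O livers and lowest in injured KO livers. It fell in KO livers by 1.57 on the log2 scale (SE 0.17, adjusted p = 0.000188) and in floxed livers by 0.67 (adjusted p = 0.0118), and differed by -0.93 ± 0.17 between the injured groups (adjusted p = 0.00318). The smaller fall in floxed livers did not pass after median centring (adjusted p = 0.0817) or without injured floxed replicate 1 (0.0667), H2O floxed replicate 1 (0.0589) or H2O floxed replicate 2 (0.0509). Ndufaf4, an early assembly factor, had 3.31 and 2.52 FPKM in injured KO livers, against 5.41 and 4.91 FPKM in injured floxed livers (-0.66 ± 0.15, adjusted p = 0.00778, and 0.0539 without injured floxed replicate 1). Ndufaf7, a methyltransferase of complex I assembly, had a difference of -0.38 ± 0.14 (adjusted p = 0.0486) that did not pass under 8 other settings or without either injured KO library, either injured floxed library or either H2O floxed library (adjusted p between 0.0549 and 0.185). Ndufaf8 had 26.4 and 12.4 FPKM in injured KO livers, against 3.20 and 6.31 FPKM in injured floxed livers (1.79 ± 0.36, adjusted p = 0.00451). With injury 3 fell in KO livers (Ndufaf1, Ndufaf4 and Ndufaf7) and 1 rose, Ndufaf8 (1.15 ± 0.36, adjusted p = 0.0232), whose call ended with no filter (0.0815) and without injured KO replicate 1 (0.121), H2O KO replicate 1 (0.101) or H2O KO replicate 2 (0.0615). In floxed livers 0 rose and 5 fell (Ndufaf1, Ndufaf2, Ndufaf3, Ndufaf4 and Ndufaf7), or 3 after median centring or without H2O floxed replicate 2. Of all tested genes, injury raised 22.3% and lowered 40.7% in KO livers, and raised 18.5% and lowered 38.8% in floxed livers. The falls in KO livers, 37.5% of the 8, are near that share. The interaction was positive for Ndufaf2 (0.78 ± 0.22, adjusted p = 0.0275) and Ndufaf3 (1.39 ± 0.28, adjusted p = 0.00865) and negative for Ndufaf1 (-0.90 ± 0.24, adjusted p = 0.0247). These 25% and 12.5% of the 8 are near the 20.9% and 15.1% of all tested genes. Only 1 was positive with no filter or without any library other than injured KO replicate 2 and injured floxed replicate 2, and 2 were negative without injured KO replicate 1. That of Ndufaf1 ended with no filter (0.06) and without any 1 library other than injured KO replicate 1 and H2O KO replicate 1 (adjusted p between 0.0557 and 0.0759).

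Of the 11 isoforms and duplicates, 4 passed the filter on low values. Cox4i2 (ENSMUSG00000009876), the isoform of subunit 4 that is induced by low oxygen in some cells, had 2.56 and 1.37 FPKM in injured KO livers, 0.195 and 0.161 FPKM in injured floxed livers, 0.238 and 0.276 FPKM in H2O KO livers, and 0.179 and 0.0542 FPKM in H2O floxed livers. It entered the test only through the injured KO libraries, so that its calls on the log2(FPKM + 1) scale (1.30 ± 0.21 between the injured groups, 1.21 ± 0.21 for injury in KO livers, 1.13 ± 0.29 for the interaction) had to be in that direction. The interaction of Cox4i2 (adjusted p = 0.0207) did not pass with a pseudocount of 0.1 FPKM (0.0537), no filter (0.0678) or voom (0.144), or without injured floxed replicate 1 (0.0629), injured floxed replicate 2 (0.0631) or H2O floxed replicate 1 (0.0619). Ndufa4l2, a paralog of Ndufa4 known as a hypoxia-inducible gene, had 0.516 and 0.300 FPKM in injured KO livers, 0.140 and 0.0775 FPKM in injured floxed livers, 2.31 and 1.34 FPKM in H2O KO livers, and 2.79 and 1.91 FPKM in H2O floxed livers. It entered the test only through the H2O libraries, which fixed the direction of its falls (-0.99 ± 0.21 in KO, adjusted p = 0.00448, and -1.58 ± 0.21 in floxed livers, 0.000608), and the added 1 FPKM shrinks these changes. Cox7a1, the muscle and fat isoform of subunit 7a, was at 1.88 and 1.58 FPKM in injured KO livers, against 0.766 and 0.634 FPKM in injured floxed livers (0.68 ± 0.13, adjusted p = 0.004). Cox5b-ps, named as a pseudogene of Cox5b though typed as protein coding, followed with 1.85 ± 0.21. Reads of so close a copy may belong to Cox5b. The 7 members not tested were Ndufb11b, Cox6a2, Cox6b2, Cox7b2, Cox8b, Cox8c and a second entry of Atp5o, which was at 0 in every library.

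The mitochondrial-encoded genes moved less clearly, and part of them have close copies in the nuclear genome, whose effect on the measured levels was not tested. On chromosome 1 lies a stretch of annotated pseudogenes that matches mitochondrial DNA almost letter for letter, so that many reads could come from either place. In GENCODE M21 (GRCm38, not the GRCm39 build that the submitters' processing notes list), Gm28661 matches 681 of 681 aligned bases of mt-Co2, Gm10925 678 of 678 of mt-Atp6, Gm28437 783 of 783 of mt-Co3, Gm28439 876 of 876 of mt-Nd4 and Gm28438 344 of 345 of mt-Nd3. Gm29216 covers 31.8% of mt-Co1 with 98.78% identity. These pairs are shown because they show how little a read of this length differs between the genomes. They are chrM:8617-8676 (plus strand) beside chr1:24613902-24613961 (minus strand), with no difference, and chrM:9459-9518 (plus strand) beside chr1:24613060-24613119 (minus strand), where capitals mark the 1 base that differs.
mt-Co3: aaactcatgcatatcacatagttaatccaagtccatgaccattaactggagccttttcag
Gm28437: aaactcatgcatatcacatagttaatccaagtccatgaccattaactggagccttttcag
mt-Nd3: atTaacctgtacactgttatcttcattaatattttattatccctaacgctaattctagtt
Gm28438: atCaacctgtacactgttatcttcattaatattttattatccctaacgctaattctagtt

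Low values were seen in genes matched almost in full, and also in genes of the same stretch with little or no annotated copy of their own. In H2O floxed livers mt-Co2 had 146 and 232 FPKM, mt-Co3 247 and 469 FPKM and mt-Atp6 937 and 492 FPKM, whereas mt-Co1, the largest subunit of complex IV, had 52830 and 40623 FPKM and mt-Cytb of complex III 18052 and 14019 FPKM. In the same livers mt-Nd4l, with no annotated copy, had 212 and 86.1 FPKM, and mt-Atp8, of which 21.1% is covered, 11.5 and 12.6 FPKM. Both lie within the stretch, of which only the annotated pseudogenes were compared. Gm28437, the copy of mt-Co3, had 69.7 and 56.0 FPKM in injured KO livers, 22.9 and 25.4 FPKM in injured floxed livers, 272 and 79.8 FPKM in H2O KO livers, and 99.3 and 136 FPKM in H2O floxed livers. The sources used here do not say how fragments that match both were assigned, and its part in these values was not tested. The 5 genes wholly outside the stretch are mt-Nd1, mt-Nd2, mt-Nd5, mt-Nd6 and mt-Cytb, while mt-Nd4l lies within it between mt-Nd3 and mt-Nd4 with no annotated copy of its own.

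In floxed livers 9 of the 13 mitochondrial-encoded genes fell with injury and 0 rose (voom 11 and 0), with a median of -1.06, beside 38.8% of all tested genes called lower and 18.5% higher. The largest falls were mt-Atp6 (-2.63 ± 0.86), mt-Co3 (-2.60 ± 0.37) and mt-Atp8 (-2.10 ± 0.48), all within the stretch. Of the 5 genes outside it only mt-Cytb fell, at 8220 and 7817 FPKM in injured floxed livers, against 18052 and 14019 FPKM in H2O floxed livers (-0.99 ± 0.31, adjusted p = 0.0275), and this call ended after median centring (0.0921), with a pseudocount of 0.1 FPKM (0.0603), with no filter (0.392) and without any of the 4 floxed libraries. For mt-Co1 the values were 20077 and 20759 FPKM in injured floxed livers, against 52830 and 40623 FPKM in H2O floxed livers (-1.18 ± 0.31, adjusted p = 0.0133). The calls of mt-Atp6 (adjusted p = 0.0319) and mt-Co1 each ended without some library, that of mt-Atp6 without any of the 4 floxed ones (0.0505 to 0.151). The call of mt-Co1 ended with no filter (0.506) and without injured floxed replicate 1 (0.0764) or 2 (0.0634) or H2O floxed replicate 1 (0.0967). Without 1 floxed library the count of falls was 3 or 2 (injured replicate 1 or 2) and 4 (either H2O replicate).

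With injury 2 of the 13 fell in KO livers, mt-Co1 and mt-Cytb, and 0 rose, with a median of -0.68 (voom 4 and 0). These 15.4% lower are under the 40.7% of all tested genes called lower. For mt-Co1 the values were 27334 and 38142 FPKM in injured KO livers, against 73846 and 45484 FPKM in H2O KO livers (-0.84 ± 0.31, adjusted p = 0.0453). For mt-Cytb they were 9607 and 14106 FPKM in injured KO livers, against 26681 and 16712 FPKM in H2O KO livers (-0.86 ± 0.31, adjusted p = 0.0423). Groups did not overlap in either gene, but both calls ended without injured KO replicate 1, H2O KO replicate 1 or any of the 4 floxed libraries, while 11 of 13 fell without H2O KO replicate 2. The falls numbered 0 after median centring and 5 after quantile normalisation.

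Between the injured groups 6 of the 13 mitochondrial-encoded genes were higher in KO livers and 0 lower (voom 6 and 0), with a median of 0.89, beside 25.3% of all tested genes called higher and 27.2% lower. They were mt-Nd3 (1.53 ± 0.30), mt-Nd4 (0.89 ± 0.29), mt-Nd4l (1.21 ± 0.44), mt-Co2 (1.47 ± 0.49), mt-Co3 (1.85 ± 0.37) and mt-Atp8 (1.87 ± 0.48), with adjusted p between 0.00385 and 0.0499. In single libraries mt-Co3 had 257 and 157 FPKM in injured KO livers, against 61.8 and 49.3 FPKM in injured floxed livers, with no overlap. None of the 5 genes outside the stretch passed, with differences from 0.29 for mt-Nd5 to 0.54 for mt-Cytb. Without 1 of the injured libraries the count was 3 (either KO library or floxed replicate 1) or 2 (floxed replicate 2). The interaction was positive for 1 gene of the 13 (7.69%), mt-Co3 (1.81 ± 0.52, adjusted p = 0.0309), under the 20.9% of all tested genes. This call ended with no filter (0.108), after quantile normalisation (0.0901) and without injured KO replicate 1, either injured floxed library, H2O KO replicate 2 or H2O floxed replicate 2. Without H2O KO replicate 1, 5 genes had a positive interaction. The ribosomal RNAs mt-Rnr1 and mt-Rnr2, transcribed from the same DNA, stood at 9322 and 7544 FPKM and at 11190 and 8784 FPKM in injured KO livers, against 2290 and 2616 FPKM and 5026 and 4894 FPKM in injured floxed livers. Both were higher in injured KO livers (1.78 ± 0.27, adjusted p = 0.00149, and 1.00 ± 0.32, 0.0301). With injury in KO livers mt-Rnr1 rose (0.93 ± 0.27, adjusted p = 0.0184) from 5498 and 3500 FPKM, and mt-Rnr2 did not pass (0.03 ± 0.32). In floxed livers mt-Rnr2 fell (-0.88 ± 0.32, adjusted p = 0.044), and mt-Rnr1 did not pass (-0.52 ± 0.27). Their interaction was positive for mt-Rnr1 (1.45 ± 0.39, adjusted p = 0.024) and did not pass for mt-Rnr2.

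The balance of the 2 genomes was taken within each library as the log2 ratio of summed mitochondrial to summed nuclear subunit FPKM, which cancels the scaling between libraries. Of the summed mitochondrial FPKM of a library, mt-Co1 made up 43.6% to 52.0% and mt-Cytb 16.2% to 18.4%, so the ratio rests mainly on few genes. The ratio was 2.94 and 3.77 for injured KO livers, 4.22 and 3.99 for injured floxed livers, 5.14 and 4.11 for H2O KO livers, and 4.46 and 4.09 for H2O floxed livers. Both injured KO libraries were the lowest of the 8, and the other 3 groups overlapped. The mean difference was -1.27 between injured and H2O KO livers and -0.75 between injured KO and injured floxed livers, each above the pooled spread between libraries of a group (SD 0.49), and -0.18 between injured and H2O floxed livers and 0.35 between H2O KO and H2O floxed livers, both below it. With 2 libraries per group this SD is also the SE of such a difference, so a value above it exceeds only 1 SE. Between the injured groups the difference was -0.33 without injured KO replicate 1 and -1.17 without injured KO replicate 2, and for injury in KO livers -0.85 without injured KO replicate 1 and -0.76 without H2O KO replicate 1. The H2O genotypes differed by -0.16 without H2O KO replicate 1. As a score over members the ratio has no test. With the 5 genes outside the copied stretch the ratio was 1.83 and 2.65 for injured KO livers, 3.26 and 2.97 for injured floxed livers, 3.98 and 2.95 for H2O KO livers, and 3.23 and 2.91 for H2O floxed livers, and the injured KO libraries were again the lowest. Within complex I the ratio averaged 3.66 ± 0.50 in injured KO livers, 4.61 ± 0.26 in injured floxed livers, 4.71 ± 0.71 in H2O KO livers and 4.28 ± 0.15 in H2O floxed livers (SD, n = 2 each). In complex III it averaged 3.44 ± 0.76 in injured KO livers, 4.53 ± 0.26 in injured floxed livers, 4.85 ± 0.60 in H2O KO livers and 4.55 ± 0.30 in H2O floxed livers. In complex IV it averaged 3.94 ± 0.63 in injured KO livers, 4.84 ± 0.12 in injured floxed livers, 5.37 ± 0.70 in H2O KO livers and 5.08 ± 0.27 in H2O floxed livers. The mitochondrial sum of complex IV is nearly all mt-Co1, which averaged 32738 of 33110 FPKM in injured KO livers. Complex V differed, with -2.23 ± 0.62 in injured KO livers, -2.64 ± 0.72 in injured floxed livers, 0.02 ± 2.20 in H2O KO livers and -0.48 ± 0.75 in H2O floxed livers, so that the lowest mean was that of injured floxed livers. Both mitochondrial genes of complex V, mt-Atp6 and mt-Atp8, lie within the copied stretch. Their sum is nearly all mt-Atp6, which averaged 305 of 315 FPKM in injured KO livers.

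**Figure D4:**
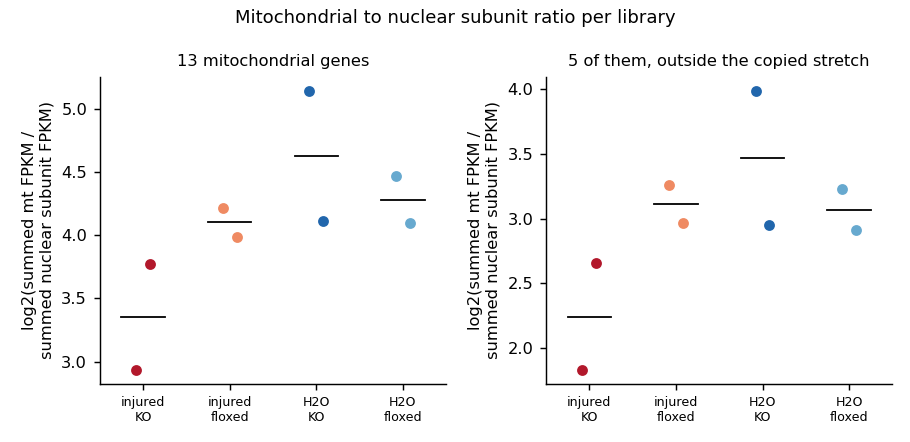
Log2 ratio of summed mitochondrial-encoded to summed nuclear subunit FPKM (vertical axes) in each library by group, with bars at the mean of 2, for all 13 mitochondrial genes and for the 5 outside the copied stretch. Injured KO livers, at 2.94 and 3.77 on the left, hold the 2 lowest values in both plots.

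Promoters of nuclear members were searched on both strands for the letters GCGCATGCG (NRF1), ACCGGAAG (the ETS core that GABP binds) and TCAAGGTCA (ERR), in RefSeq windows of 250 bases before to 50 after the start (GRCm38.p6). Of 66 nuclear subunits with a window, 8 (12.1%) held the first, 7 (10.6%) the second and 2 (3.03%) the third, against 1.95%, 2.6% and 0.466% of 27025 genes in the table. Between injured KO and injured floxed livers all 8 with the NRF1 letters were higher (median 1.49), as were 46 of the 58 without (median 1.30). With the ETS letters 5 of 7 were higher (median 1.12), against 49 of 59 without (median 1.43). Of 7 assembly factors with a window, 2, 1 and 0 held the letters. Windows of 100 bases from 3 of the 4 genes with the largest differences and from Ndufaf1, which moved the other way, are shown, on the strand of the gene, and capitals mark the match (for Uqcr11 and Atp5e on the opposite strand, and for Atp5k on both). They lie at chr10:80406773-80406872 for Uqcr11, chr5:108434396-108434495 for Atp5k, chr2:174464151-174464250 for Atp5e and chr2:119662801-119662900 for Ndufaf1, all on the minus strand. A match describes letters and not binding.
Uqcr11: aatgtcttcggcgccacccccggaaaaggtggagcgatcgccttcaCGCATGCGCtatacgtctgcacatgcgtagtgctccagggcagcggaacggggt
Atp5k: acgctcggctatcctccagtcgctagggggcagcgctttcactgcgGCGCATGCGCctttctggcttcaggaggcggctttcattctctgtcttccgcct
Atp5e: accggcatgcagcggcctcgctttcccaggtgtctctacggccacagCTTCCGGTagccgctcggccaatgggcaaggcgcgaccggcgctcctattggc
Ndufaf1: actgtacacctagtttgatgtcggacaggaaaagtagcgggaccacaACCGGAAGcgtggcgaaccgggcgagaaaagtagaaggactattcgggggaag

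Other genes of the pathway were read in the same comparison of injured KO with injured floxed livers. Genes of mitochondrial transcription, replication and RNA processing were mostly lower in KO livers, with 21 of 29 lower and 1 higher, beside 27.2% of all tested genes lower and 25.3% higher. Fastkd1, an RNA-binding protein of mitochondria, had 0.489 FPKM in both injured KO livers, against 1.66 and 1.87 FPKM in injured floxed livers (-0.89 ± 0.12, adjusted p = 0.000802), and Prorp, the catalytic part of mitochondrial RNase P, differed by -1.13 ± 0.16, Fastkd5 by -1.20 ± 0.18 and Fastk by -0.95 ± 0.15. Of 10 regulators of mitochondrial biogenesis 2 were higher and 5 lower, and Perm1, 1 of the higher ones, entered the test only through injured KO livers. Ppara, a nuclear receptor of fatty acid oxidation, had 1.60 and 1.62 FPKM in injured KO livers, against 5.42 and 6.53 FPKM in injured floxed livers (-1.42 ± 0.17). The DNA-binding GABP subunit Gabpa was lower (-1.03 ± 0.13), as was its partner Gabpb2 (-1.10 ± 0.16), and the other partner, Gabpb1, was higher (0.93 ± 0.17).

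Among assembly factors of complexes outside the symbol rule, 10 of 37 were higher and 12 lower, which is near the shares of all tested genes (25.3% and 27.2%). Uqcc2 (2.15 ± 0.23) and Uqcc3 (1.96 ± 0.21), both for complex III, were higher, and Cox15 of heme A synthesis (-1.47 ± 0.16) and Atpaf1, a chaperone of the F1 head (-0.97 ± 0.12), were lower. Electron carriers and ubiquinone genes had 5 of 24 higher, near the share of all tested genes, and 2 lower, under that share. Among the higher ones was Coq8a, a kinase-like protein of ubiquinone synthesis, at 15.1 and 11.2 FPKM in injured KO livers, against 2.51 and 2.00 FPKM in injured floxed livers (2.12 ± 0.18). Its H2O values were 82.5 and 84.7 FPKM in KO livers and 77.8 and 75.6 FPKM in floxed livers, and it fell with injury in both genotypes (-2.59 ± 0.18 in KO livers and -4.58 ± 0.18 in floxed livers). Cyc1 had 90.1 and 82.2 FPKM in injured KO livers, against 44.2 and 49.6 FPKM in injured floxed livers (0.86 ± 0.20, adjusted p = 0.00814), which did not pass after quantile normalisation (0.0848) or without injured floxed replicate 1 (0.0599). Mitochondrial ribosomal proteins had 32 of 77 higher, such as Mrpl14 (2.06 ± 0.22), and 13 lower, such as Mrps31 (-1.51 ± 0.18). The tricarboxylic acid cycle had 2 of 20 higher and 6 lower, a share of lower genes again near that of all tested genes, among them Dld, the dehydrogenase subunit shared by several enzyme complexes (-1.05 ± 0.19). Of 8 carriers and uncoupling proteins 2 were higher, also near the share of all tested genes, the uncoupling protein Ucp2 (1.75 ± 0.15), which macrophages also express, and Slc25a4, an ATP and ADP carrier (0.61 ± 0.18, adjusted p = 0.0226, which ended with no filter and without injured KO replicate 1 or injured floxed replicate 2, at 0.069, 0.119 and 0.142).

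Paralogs and stress-linked relatives of the subunits were higher in 6 of 7 tested cases, and 0 were lower, beside 25.3% and 27.2% of all tested genes. Cox4i2 is among the higher ones and entered through the higher group alone. AA467197, a paralog of Ndufa4 known as Nmes1, had 8.88 and 7.57 FPKM in injured KO livers and 1.19 and 1.41 FPKM in injured floxed livers. It was at 0 in both H2O KO libraries and in 1 H2O floxed library, and at 0.0355 FPKM in the other. It entered the test only through the injured libraries, which fixed the direction of its rises in KO livers (3.20 ± 0.14, adjusted p = 3.87e-06) and in floxed livers (1.18 ± 0.14, adjusted p = 0.000326). The groups differed by 2.00 ± 0.14 under injury (adjusted p = 0.000135). Atpif1, the inhibitor of ATP hydrolysis by complex V, had 6.91 and 5.28 FPKM in injured KO livers, 1.96 and 1.30 FPKM in injured floxed livers, 3.77 and 5.44 FPKM in H2O KO livers, and 4.64 and 6.43 FPKM in H2O floxed livers. It was lowest in injured floxed livers (1.44 ± 0.23 between the injured groups, adjusted p = 0.00166), as was Higd2a, an assembly factor of complex IV (1.72 ± 0.22, adjusted p = 0.000728).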

How the data were processed

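RNA was extracted from whole liver, and libraries from a NEBNext Ultra kit were read on an Illumina NovaSeq, per the labels' protocols. The authors deposited 1 table of FPKM values with 1 column per library. The submitters' processing notes list DESeq2 3.15 and GRCm39. The aligner, counter and annotation: not given in the sources used here. Multiplied by exon lengths of GENCODE M21, 98.2% to 98.5% of values above 0 were within 0.01 of whole fragments, which gave each library's total. Precision at low levels is limited by this depth.

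Values were used as log2(FPKM + 1). The 13708 genes that reached 1 FPKM in 2 or more libraries, 103 members among them, were fitted with limma 3.58.1 (R 4.3.3, 1 mean per group, 4 residual degrees of freedom, variance trend, two-sided), with Benjamini-Hochberg adjustment over all of them and a threshold of 0.05 in each of 5 comparisons. A gene is said to rise, fall or be higher or lower only where it passed. Errors of differences are SE, and those of levels SD. FPKM is per summed exon length, which is not the length of the transcript expressed in liver. Levels therefore compare only roughly between genes. Python 3.11.15 with pandas 2.3.3 served for tables and figures.

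The members and all lists were chosen with earlier results of these data known. The rule named in each comparison the 6 largest rises and falls among nuclear members, all mitochondrial-encoded genes, a panel of subunits with Glul and Lyz2, and up to 4 members of each list by smallest p. Other genes, such as c ring subunits and further assembly factors and isoforms, were chosen after their values were seen. Alternatives were a pseudocount of 0.1 FPKM, no filter, 5 FPKM in 2 libraries, median centring, scaling without mitochondrial and haemoglobin genes, quantile normalisation, array weights, a fit without the other groups, a replicate block, voom on recovered fragments, and each library left out. A library left alone in its group was taken to vary as the others do. The ratio without genes in the copied stretch was added after the values were seen.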

Additional observations from a re-analysis of the deposited data

Results flagged for a closer look

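The difference between genotypes in the response to injury passed its test as positive for 20.9% of all tested genes and as negative for 15.1%. Among 78 nuclear subunits 57 were positive and 1 negative. Among 13 mitochondrial-encoded genes 1 was positive (7.69%, under the share of all tested genes). Among 8 complex I assembly factors 2 were positive and 1 negative (25% and 12.5%, near those shares). Of 4 tested isoforms 2 were positive, of which Cox4i2 passed the filter only through injured KO livers, which fixed its direction. By gene the interaction was 2.35 for Uqcr11, 2.31 for Atp5e, 2.27 for Ndufa13, 2.22 for Uqcrq, 2.18 for Atp5d, 2.17 for Ndufa2, 1.81 for mt-Co3, -0.90 for Ndufaf1 and -0.76 for Ndufs1 (log2). The calls of Ndufaf1 and Ndufs1 each ended without any of 6 libraries, and that of mt-Co3 without any of 5. Those of Ndufaf1 remained only without injured KO replicate 1 or H2O KO replicate 1, and that of Ndufs1 only without injured KO replicate 2 or H2O KO replicate 1.

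Gm29216, a nuclear pseudogene that resembles mt-Co1 and is no member, had 2608 and 94.7 FPKM in injured KO livers, 50.7 and 17.6 FPKM in injured floxed livers, 278 and 218 FPKM in H2O KO livers, and 203 and 101 FPKM in H2O floxed livers, so that 1 library, injured KO replicate 1, stands far above the rest. The same library has the highest haemoglobin share, 2.00% of fragments, against 0.285% in the other injured KO library.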

How the results depend on the processing

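Beside the replicates left out, the nuclear counts that moved by over 1.5 times were those of injury in KO livers (17 higher with only the groups compared, and 2 lower with median centring or only the groups compared), of injury in floxed livers (1 higher with a filter of 5 FPKM, array weights or voom, 2 with median centring or only the groups compared, 3 with quantile normalisation), of KO against floxed in injured livers (3 lower with quantile normalisation) and of the interaction (0 lower with no filter). Mitochondrial-encoded falls in KO livers numbered 0 with a pseudocount of 0.1 FPKM, no filter, median centring, array weights or only the groups compared, 1 with scaling without mitochondrial and haemoglobin genes, 5 with quantile normalisation and 4 with voom. With no filter, 3 fell in floxed livers, 2 were higher in the injured KO group than in the injured floxed one, and 0 had an interaction. The ratio difference in floxed livers was 0.0465 with the genes outside the copied stretch. Atp5a1 and Atp5b turned to -0.379 and -0.0223 in injured KO against injured floxed livers after quantile normalisation, and Ndufs1 to -0.0444 for injury in floxed livers with scaling without mitochondrial and haemoglobin genes; none of these passed a test. The cause of these shifts was not tested.

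With each library left out, nuclear counts ranged from 9 to 30 higher and 2 to 6 lower for injury in KO livers, 0 to 1 higher and 37 to 61 lower for injury in floxed livers, 54 to 64 higher and 1 lower for KO against floxed in injured livers, and 39 to 61 higher and 0 to 1 lower for the interaction. Mitochondrial-encoded counts ranged from 0 to 11 lower in KO livers, 2 to 12 lower in floxed livers, 2 to 8 higher between the injured groups and 0 to 5 positive for the interaction. Ratio differences ranged from -1.78 to -0.76 for injury in KO livers, -0.36 to 0.00984 in floxed livers, -1.17 to -0.33 between the injured groups and -0.16 to 0.86 between the H2O groups. The difference of Atp5a1 between the injured groups ranged from -0.0214 without injured KO replicate 1 to 0.163 without injured KO replicate 2.

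Libraries with the same replicate number had correlations of their deviations between -0.10 and 0.27 over the 6 pairs of groups, the highest between the H2O groups. The numbers follow the sample titles. With 2 libraries per group this check cannot exclude a pairing or a shared batch. With the replicate block, 23 nuclear subunits rose and 4 fell in KO livers, 58 fell in floxed livers, 62 were higher and 1 lower between the injured groups, and 54 had a positive interaction and 1 a negative one.

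Each group has 2 libraries, and a single fragment in 1 kb of exon equals 0.0403 to 0.0544 FPKM, so differences of genes near 1 FPKM rest on few fragments.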
